A study of Mus musculus with 2 samples.

Results

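The T-box genes Tbx2, Tbx3, Tbx4, Tbx5, Tbx15 and Tbx18 were examined in the tissue between the digits of mouse hind limbs, comparing wild-type embryos with homozygotes of Hammer toe, a mutation that leaves webbing between the digits. All probe sets whose platform annotation named 1 of these 6 genes alone were taken, which gave 14 of the 34945 probe sets that named exactly 1 gene, and 6 of 18193 genes. The genes were chosen by family, with the Hammer toe to wild-type ratios of these same arrays already known, so their differences are given as a description. The wild-type group was B6 and the Hammer toe group was homozygous for the mutation, with no strain named for it, so strain and mutation cannot be told apart. Both groups were taken at E13.5 from natural matings, as the pieces labelled ID2 and ID3 of the hind limb. The study's design speaks of 3 sets of 5 littermates, 15 embryos per genotype. Each genotype has 1 array, and the sources used here do not say whether the sets were pooled for it. There is therefore no error between samples for any value below and no test. The number of arrays limits the precision.

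T-box proteins are transcription factors that share a DNA-binding domain, the T-box. Tbx2 and Tbx3 are close relatives that act mainly as repressors and are known from the limb bud margins and the mesenchyme between the digits. Tbx4 and Tbx5 mark the hind limb and the forelimb, where each takes part in starting limb outgrowth. Tbx15 and Tbx18 are another closely related pair, expressed in limb mesenchyme, and Tbx15 is needed for normal skeletal development. In the RefSeq gene table of GRCm38.p6, Tbx2 lies next to Tbx4, and Tbx3 next to Tbx5.

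Values are MAS5 intensities, a single linear value per probe set made from its matching and mismatching probes. Low values were treated as noise, and a floor of 78.1 was used, the median reading over the 2 arrays with control probe sets left out. A probe set was called measured if at least 1 of its readings exceeded that floor, and ratios are Hammer toe over wild type. Both arrays had the same 2% trimmed mean of 500.003, the scale the authors' processing set, so a shift of most transcripts in 1 direction could not be seen. Of the 14 T-box probe sets, 9 were measured, all of them above the floor on both arrays. They covered 5 of the 6 genes, and Tbx5 had no measured probe set. Probe sets bind with different efficiency, so intensities are compared between arrays and not between genes. Both arrays come from whole tissue pieces, in which fewer cells of a type and less RNA per cell cannot be told apart.

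Tbx2 and Tbx3 were higher on the Hammer toe array on every measured probe set, while Tbx4, Tbx15 and Tbx18 were slightly lower on every measured probe set. At 1.5-fold or more, 3 of the 9 measured T-box probe sets were higher in Hammer toe, where 2.15% of all 20995 measured probe sets naming 1 gene were. None of the 9 was lower by that much, where 1.75% of all were. At 2-fold or more stood 1 of the 9, a Tbx3 probe set, where 0.224% of all were that much higher. Read from the probe set with the highest mean, 2 of 5 T-box genes were at least 1.5-fold higher, against 2.17% of 11621 measured genes, and none was at least 1.5-fold lower, against 1.39%. The median log2 ratio of the 9 probe sets was -0.12, beside 0.00 over all measured probe sets. The median does not describe the group well, because the ratios fell into a range of 0.70 to 1.33 for Tbx2 and Tbx3 and a range of -0.32 to -0.06 for the other 3 genes.

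**Figure D1:**
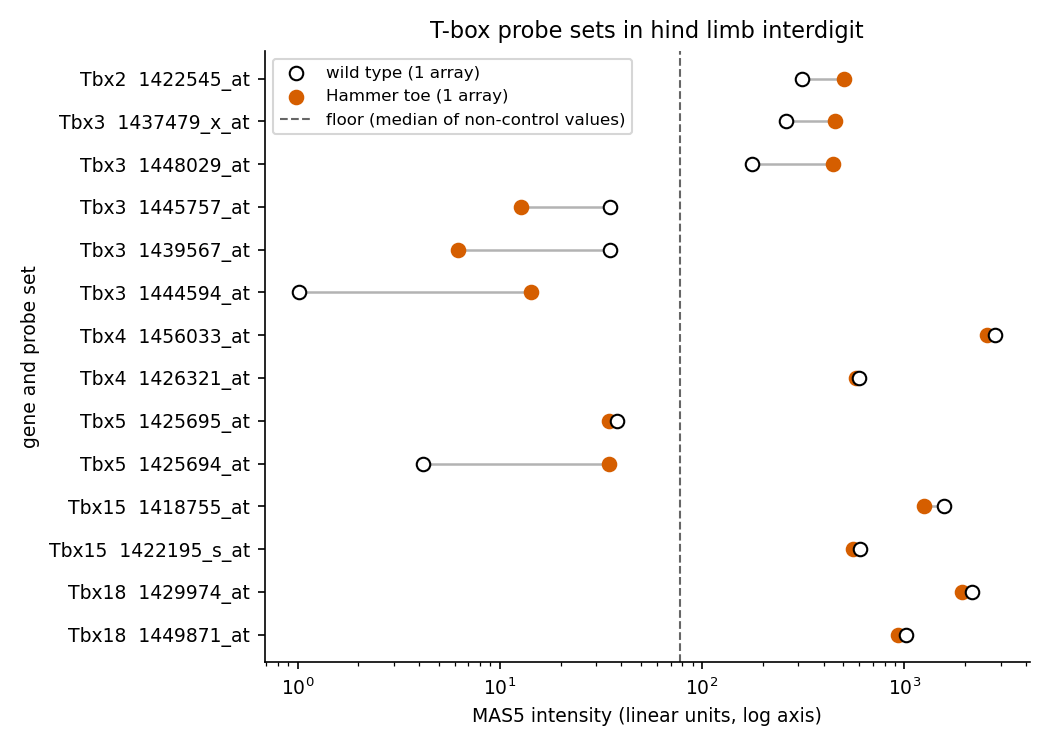
MAS5 intensity (log axis) of the 14 T-box probe sets on the wild-type array (open circles) and the Hammer toe array (filled circles), with the floor of 78.1 as a dashed line. The Tbx2 probe set and both measured Tbx3 probe sets lie to the right of wild type in Hammer toe, the 6 measured probe sets of Tbx4, Tbx15 and Tbx18 lie slightly to the left, and 5 probe sets of Tbx3 and Tbx5 lie under the floor on both arrays.

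Tbx3, a repressor whose loss of 1 copy in humans causes ulnar-mammary syndrome, showed the largest difference. Probe set 1448029_at read 176 on the wild-type array and 443 on the Hammer toe array, 2.52-fold higher, a log2 ratio of 1.33. It ranked 12th from the top among the 19461 named probe sets that exceeded the floor on each array. Probe set 1437479_x_at of the same gene read 262 and 455, 1.74-fold higher, a log2 ratio of 0.80, the 119th highest. This second probe set is of the _x_at type, which can bind related transcripts, and it is the brighter of the 2, so the gene-level value of Tbx3 rests on it. Both probe sets thus put the Hammer toe array above wild type, but by unequal amounts. They differed by 0.53 on the log2 scale, where the median gap was 0.17 among 3050 genes with exactly 2 probe sets above the floor on each array, and 8.13% of those genes had a gap at least as wide. Both probe sets were at least 1.5-fold higher in 11 of those 3050 genes, 0.361%, Tbx3 included.

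The other 3 Tbx3 probe sets stayed below the floor on each array and gave no usable ratio. Probe set 1439567_at read 35.0 (wild type) and 6.23 (Hammer toe), 1445757_at read 35.0 and 12.8, and 1444594_at read 1.02 and 14.2. Taken as they stand, these readings are lower in Hammer toe for 2 probe sets and higher for 1. Of the 13950 named probe sets under the floor on both arrays, 41.0% were at least 2-fold apart in their raw readings. Where each probe set lies in the transcript is not given in the sources used here, and in the RefSeq table the span of the non-coding gene Tbx3os1 overlaps that of Tbx3. Nothing is read from values this low, for or against the difference on the measured Tbx3 probe sets.

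Tbx2, the close relative of Tbx3 and likewise a repressor, has a single probe set here, 1422545_at. It read 311 on the wild-type array and 506 on the Hammer toe array, 1.63-fold higher, a log2 ratio of 0.70, the 188th highest of the 19461. No other probe set can be set beside it. Tbx2 and both measured Tbx3 probe sets fall in the same intensity class, with a brighter array between 200 and 1000. In that class of 9066 probe sets, 95% lay within 1.45-fold, and 2.04% exceeded wild type by 1.5-fold or more. All 3 probe sets lay outside that middle range, on its upper side. This range comes from the same pair of samples, so it mixes measurement spread with differences between embryos.

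**Figure D2:**
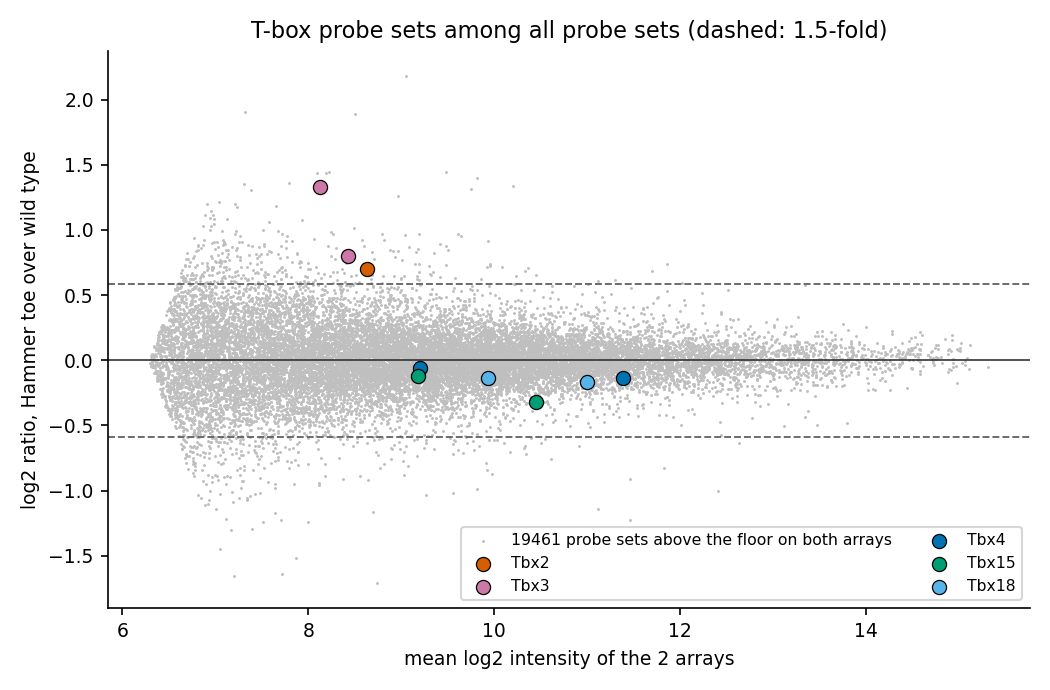
Log2 ratio of Hammer toe over wild type against the mean log2 intensity for 19461 named probe sets above the floor on each array (grey), with the T-box probe sets in colour and 1.5-fold as dashed lines. Tbx3 (0.80 and 1.33) and Tbx2 (0.70) lie above the upper line, and Tbx4, Tbx15 and Tbx18 lie between 0 and -0.32, within the grey cloud.

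By the rule for likeness, the genes whose intensities on the 2 arrays lay nearest to those of Tbx3 on its brighter probe set were Apex2, Ptger4 and Lrch1, with distances of 0.05, 0.12 and 0.15 on the log2 scale. Apex2, a DNA repair nuclease, had a log2 ratio of 0.75, Ptger4, a prostaglandin receptor, of 0.70, and Lrch1 of 0.60. With 2 arrays this is a likeness of 2 numbers and carries no information on shared control.

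Tbx4 and Tbx5 tell the hind limb from the forelimb. Tbx4, the hind limb gene, was well above the floor on both arrays, and Tbx5, the forelimb gene, was under it on both. Tbx4 probe set 1456033_at read 2812 and 2558 (wild type, then Hammer toe), 1.10-fold lower. Its second probe set, 1426321_at, read 601 and 578, 1.04-fold lower. The log2 ratios of -0.14 and -0.06 differed by 0.08, less than the median gap between probe sets of a gene. Tbx5 probe set 1425695_at read 37.9 (wild type) and 34.6 (Hammer toe), and 1425694_at read 4.18 and 34.8. Neither reached the floor, so no ratio is given for Tbx5, and its transcript was not detectable above the floor in either genotype. Pitx1, which acts upstream of Tbx4 in the hind limb, had log2 ratios of -0.21 and -0.31 on its 2 probe sets, and the hind limb Hox gene Hoxc10 of -0.23. Tbx4, Pitx1 and Hoxc10 all read above the floor on both arrays, which goes with the hind limb label of both samples. Their ratios between genotypes do not bear on that label. Isl1, which acts in the early hind limb field, was under the floor on both arrays.

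Tbx15 and Tbx18 were bright on both arrays and a little lower in Hammer toe. Tbx15 probe set 1418755_at read 1566 and 1256, 1.25-fold lower, a log2 ratio of -0.32. Among the 6800 probe sets whose brighter array read above 1000, 95% lay within 1.25-fold, and this Tbx15 probe set lay just inside that limit. The second, 1422195_s_at, read 605 and 557, 1.09-fold lower. The Tbx15 ratios differed by 0.20, and 44.6% of genes with 2 probe sets had a gap at least as wide. Tbx18, which in the embryo is also known from the ureter and the heart, had the closest agreement between probe sets. Probe set 1429974_at read 2169 and 1937, 1.12-fold lower, and 1449871_at read 1022 and 930, 1.10-fold lower. The 2 ratios differed by 0.03 on the log2 scale.

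Both probe sets of Tbx4, both of Tbx15 and both of Tbx18 were thus lower in Hammer toe, and all 6 lay within 1.25-fold. Among the 3050 genes with exactly 2 such probe sets, 807 had both lower, 26.5%. A pair of probe sets that are both lower, by any amount, is thus common in these arrays. The 18 spiked hybridisation control probe sets had an SD of 0.06 in their log2 ratios. Probe sets of the same gene had a pooled SD of 0.21. Of the 6 ratios, only that of Tbx15 probe set 1418755_at, -0.32, exceeded this pooled SD in size. Without replicate arrays, these 6 differences cannot be told apart from no difference. The larger differences of Tbx2 and Tbx3 have no replicate arrays behind them either.

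The promoter stretches of Tbx4 and Tbx18 are shown because these were the only 2 of the 6 members that matched RefSeq's promoter table (GRCm38.p6). Their ratios played no part in the choice. Each is the 250 bases before the annotated start, 5′ to 3′ on the gene's strand, and capitals mark a motif match. Tbx4 is at chr11:85896515-85896764 on the + strand and Tbx18 at chr9:87731261-87731510 on the - strand.
Tbx4: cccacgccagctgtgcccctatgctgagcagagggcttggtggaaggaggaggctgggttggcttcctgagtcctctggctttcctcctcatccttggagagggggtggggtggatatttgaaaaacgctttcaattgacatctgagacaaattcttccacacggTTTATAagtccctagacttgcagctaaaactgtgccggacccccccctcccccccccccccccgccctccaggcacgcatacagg
Tbx18: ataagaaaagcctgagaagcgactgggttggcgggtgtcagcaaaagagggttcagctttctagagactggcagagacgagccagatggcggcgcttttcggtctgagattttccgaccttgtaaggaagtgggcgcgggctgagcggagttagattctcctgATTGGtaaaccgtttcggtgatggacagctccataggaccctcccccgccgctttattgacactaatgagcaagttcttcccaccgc

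Searched on both strands were the T-box motif AGGTGTGA, the Gli motif GACCACCCA, the Pitx motif TAATCC, the TATA box TATAAA and the CAAT box CCAAT. The Tbx4 stretch held 1 match, the TATA box on the opposite strand, beginning 85 bases before the start, and 12.4% of all 32851 stretches of this length held that motif. The Tbx18 stretch held 1 match, the CAAT box on the opposite strand, beginning 87 bases before the start, and 33.8% of all stretches held it. The T-box motif, the Gli motif and the Pitx motif occurred in 1.12%, 0.225% and 6.25% of all stretches and in neither of these. A match describes the letters in this window only. The GC content was 58.4% for Tbx4 and 54% for Tbx18.

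Genes next to the T-box loci were read in the order of the RefSeq table, taking the 2 nearest measured protein-coding genes on each side. Of these 16 genes, 7 were higher and 9 lower in Hammer toe, with a median log2 ratio of -0.09, and 1 was at least 1.5-fold higher. That gene was Bcas3, a cytoskeleton-associated protein and the nearest measured neighbour of Tbx2. It read 173 and then 271, 1.56-fold higher, a log2 ratio of 0.65 on its only measured probe set. The next gene on that side, the phosphatase gene Ppm1d, had a log2 ratio of 0.01. On the Tbx4 side, the helicase gene Brip1 was at -0.23 and Ints2, a subunit of the Integrator complex, at 0.08. Beside the pair of Tbx3 and Tbx5, the Mediator subunit gene Med13l was at 0.08 and Spring1 at -0.29, and Rbm19 and Plbd2 on the other side were at -0.15 and -0.40. The other probe sets of Plbd2 and Spring1 reached 0.13 in each case. Around Tbx15, Wars2 and Zfp697 were at -0.15 and 0.10, and Wdr3 and Gdap2 at 0.21 and -0.15. Around Tbx18, Cep162 and Cyb5r4 were at -0.20 and 0.06, and Nt5e and Snx14 at -0.04 and -0.23. None of the neighbours of Tbx3 thus shared its difference in size, and of the neighbours of Tbx2 only Bcas3 came near it.

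Other members of the T-box family were mostly under the floor. Of 11 listed, 9 had a probe set that named them alone and 2 were measured. Tbx1, a gene of the pharyngeal arches, read 246 (wild type) and 285 (Hammer toe), a log2 ratio of 0.21. Mga, a broadly expressed gene whose protein also carries a Max-binding region, read 935 and 819 on its brightest probe set, a log2 ratio of -0.19, and had log2 ratios of 0.04 and 0.18 on its other measured probe sets. Tbx6, Tbx19, Tbx20, Tbx21, Tbx22, Tbr1 and Eomes were under the floor on both arrays.

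Genes that act upstream of T-box genes in the limb were summarised from a list of 20, of which 19 were measured. There, 3 were higher and 16 lower in Hammer toe, with a median log2 ratio of -0.13, where 48.3% of all measured genes were lower and the median was 0.01. Most of these differences were small. At 1.5-fold or more on its brightest probe set stood 1 gene, Shh, the ligand that patterns the limb, which read 22.5, below the floor, on the wild-type array and 192 on the Hammer toe array, a difference of at least 2.45-fold. The other Shh probe set did not reach the floor on either array. The BMP ligands, which are known to induce Tbx2 and Tbx3 in several tissues, were lower on their brightest probe sets. Bmp2 was at a log2 ratio of -0.19, Bmp4 at -0.27 and Bmp7 at -0.17, and the other Bmp7 probe sets were at -0.03 and 0.09. The ratios of all 3 genes lay within the middle 95% of probe sets whose brighter array read above 1000, from -0.32 to 0.33. The brightest probe sets of Hand2, Hoxa13 and Rarg, in the same class, lay below that range, at -0.47, -0.41 and -0.33. The second Rarg probe set was at -0.22. The BMP receptor gene Bmpr1a was at -0.06, and Smad1 and Smad5, which carry its signal, were at -0.01 and -0.12. Hand2, a posterior limb gene, had the lowest ratio of the list, -0.47 on its brightest probe set. A dimmer Hand2 probe set read 140 and 78.3, just above the floor, a log2 ratio of -0.84, and the third, below the floor in Hammer toe, gave a bound of -0.08.

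Of 23 listed targets and partners of these factors, 13 were measured, 7 higher and 6 lower, with a median log2 ratio of 0.05. At 1.5-fold or more stood 1 gene, Sall4, a zinc finger gene downstream of Tbx5 in the forelimb, which read 117 on the wild-type array and 52.5, below the floor, on the Hammer toe array, a log2 ratio of -0.59 taken at the floor. Its second probe set read 78.8 and 70.8, the latter below the floor, which gives a bound of -0.01. Fgf10, the outgrowth ligand that Tbx4 and Tbx5 activate, read 260 and 373, a log2 ratio of 0.52 on 1 probe set. Cdkn1a, a cell cycle inhibitor gene repressed by Tbx2 and Tbx3 in other cells, read 153 and 160, a log2 ratio of 0.07, and its second probe set was at 0.16. Cdkn2a and Cdkn2b were under the floor on both arrays. Cdh1, which Tbx3 represses in some tumour cells, had a log2 ratio of 0.49. It is also in the surface ectoderm list, where 13 of 15 genes were higher on their brightest probe sets. Grem1, a BMP antagonist gene, was at -0.11, and Mycn at 0.05. Gja1, a gap junction gene, had its brightest probe set at -0.01 and others between -0.22 and 0.39.

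**Figure D3:**
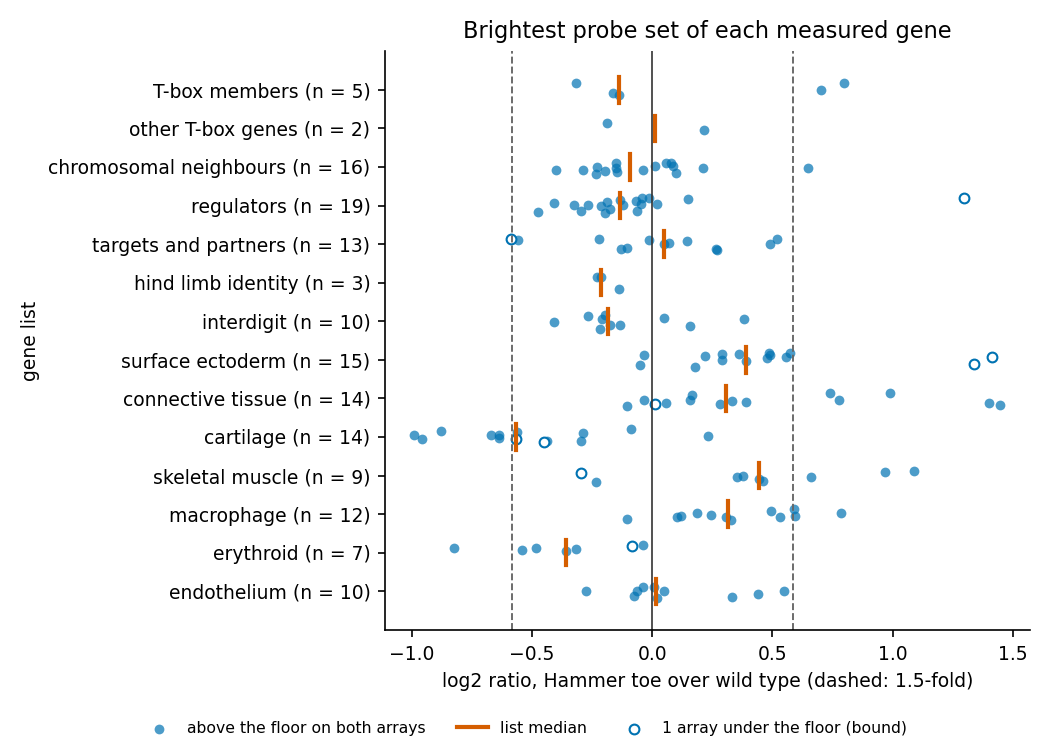
Log2 ratio of Hammer toe over wild type for the brightest probe set of each measured gene in 14 lists (points, open where 1 array was under the floor and the ratio is a bound), with list medians in orange and 1.5-fold as dashed lines. Within the T-box list, Tbx2 and Tbx3 stand apart at 0.70 and 0.80 from Tbx4, Tbx15 and Tbx18. The surface ectoderm list lies mostly to the right of 0 and the cartilage list mostly to the left.

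Markers of the tissue and of other cell types were read for both arrays, by the summed intensity of the brightest probe sets of each list. All 10 interdigit genes were measured, among them Aldh1a2, the retinoic acid enzyme of this tissue, at 13129 in wild type and 11474 in Hammer toe. Of the 10, 7 were lower, with sums of 54198 and 48971, and the largest difference was that of Hoxa13, at -0.41. Aldh1a2, Hoxa13, Hoxd13, Bmp4 and Bmp7 are among these 7 and also in the list of upstream genes, so the counts overlap. In the surface ectoderm list 13 of 15 genes were higher, with sums of 14079 (wild type) and 18173 (Hammer toe), and Pkp1 and Krt19 were at least 2.66-fold and 2.53-fold higher. Connective tissue genes were higher in 12 of 14, with sums of 44645 and 49049, and Ogn, Lum, Kera, Osr2 and Dcn passed 1.5-fold. Skeletal muscle genes were higher in 7 of 9 measured of 12 listed, with sums of 1591 and 2246, and macrophage genes in 11 of 12, with sums of 4424 and 5540. Myh3, Actc1 and Tnnc1 passed 1.5-fold in the former and Aif1, Mrc1 and C1qa in the latter, while the muscle progenitor genes Pax3, Pax7 and Myf5 stayed below the floor. Cartilage genes were lower in 13 of 14 measured of 16 listed, with sums of 17066 and 11107, and Col9a3, Sox5, Col9a2, Col2a1, Sox9 and Col9a1 passed 1.5-fold. Erythroid genes were lower in all 7 measured, with sums of 58057 and 49787, and Hbb-bh1 passed 1.5-fold. Endothelial genes had a median of 0.01, with sums of 5184 and 5630 and Esam furthest at 0.55. The medians of the surface ectoderm, connective tissue, muscle, macrophage and endothelial lists lay above 0, the last of them at 0.01. Those of the interdigit, hind limb identity, cartilage and erythroid lists, at -0.18, -0.21, -0.56 and -0.36, lay below 0. The hind limb identity list has 3 measured genes, Tbx4 among them, and its member Pitx1 is also in the list of upstream genes. The part of these cell types in the T-box values was not tested.

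**Figure D4:**
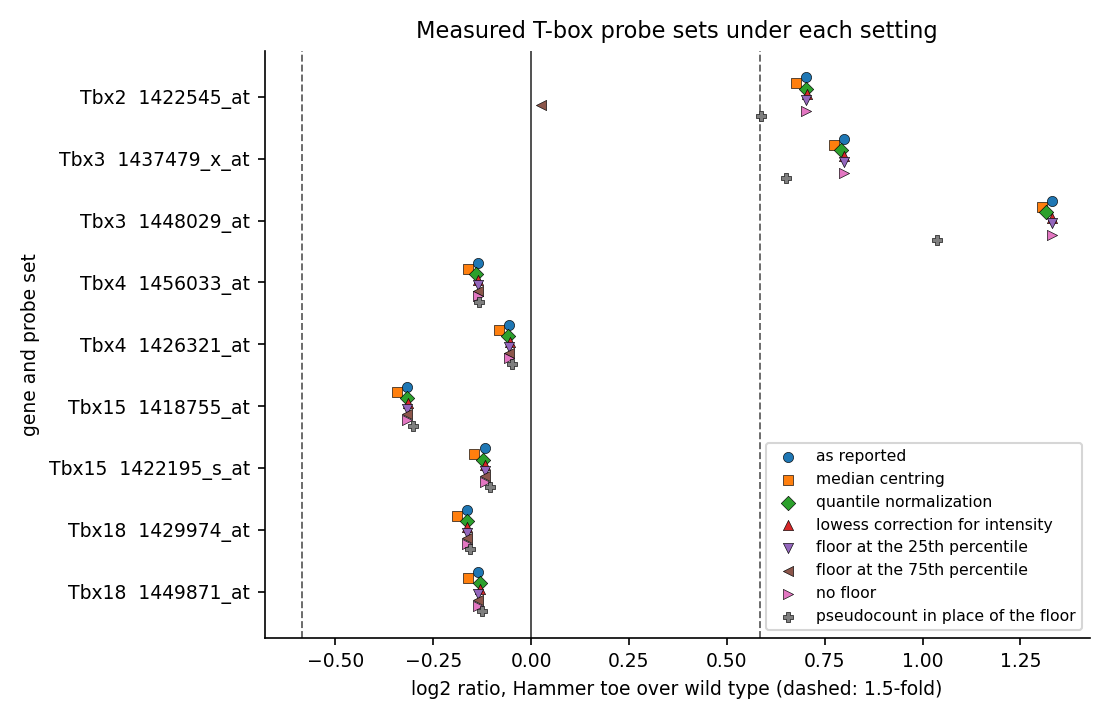
Log2 ratio of Hammer toe over wild type for the 9 measured T-box probe sets under the reported setting and 7 other settings of scaling and floor, each a symbol, with 1.5-fold as dashed lines. All ratios of Tbx4, Tbx15 and Tbx18 lie between -0.34 and -0.05. Under the highest floor, the 75th percentile, the Tbx2 symbol at 0.024 is a lower bound, and Tbx3 is no longer measured.

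The scaling of the arrays did not change these values by much. With median centring, quantile normalization or a lowess correction for intensity, Tbx2 stood at 0.68, 0.70 and 0.70 and Tbx3 on 1448029_at at 1.31, 1.31 and 1.33. The floor mattered more, since Tbx2 and Tbx3 read at most 506 and 455. With the floor raised to the 75th percentile, neither Tbx3 probe set was measured and Tbx2 gave a lower bound of 0.024. With a pseudocount in place of the floor, Tbx2 was at 0.59 and the Tbx3 probe sets at 0.65 and 1.04, still at or beyond 1.5-fold.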

How the data were processed

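Per the labels' protocols, RNA of the hind limb interdigit was purified with RNeasy, and 250 ng went into biotinylated cRNA. The deposited table holds 1 linear intensity per probe set and array, computed by the authors with the MAS5 method of Affymetrix Expression Console (from the submitters' processing notes, version not given in the sources used here). Of 45101 probe sets, 64 were controls. GEO's platform annotation, with symbols updated through the gene ID to RefSeq (GRCm38.p6), gave 1 gene to 34945 probe sets, several to 932 and none to 9160.

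Readings below the floor were set equal to it, and log2 ratios were then formed. Each gene took the value of its brightest probe set by mean intensity. A ratio with 1 array under the floor is a bound, written "at least". With 1 array per genotype, no test was run and size alone (1.5-fold or 2-fold) made a call. The script was tested on simulated data. Python 3.11.15, numpy 2.4.6, pandas 2.3.3 and statsmodels 0.14.6 were used.

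The members and gene lists were chosen with earlier results of these data known. The rule for named genes took all T-box probe sets, up to 6 members of each other list past 1.5-fold (the furthest member where none passed), the neighbours described and the 3 genes nearest to Tbx3. Other list members were named for their roles, after their values were seen. Alternatives were 3 scalings, 4 treatments of low values and 2 ways of reading a gene from its probe sets.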

Additional observations from a re-analysis of the deposited data

How the results depend on the processing

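All alternatives were planned. The ratios of Tbx4, Tbx15 and Tbx18 kept their sign under all 9 alternatives. The floor and pseudocount settings could not have changed it, nor could the 2 ways of reading a gene from its probe sets. Both readings of each of these genes' measured probe sets exceeded every floor used, and a pseudocount keeps the sign of a ratio. All of those probe sets were lower in Hammer toe, so a mean over them or a choice among them is lower too. The kept sign therefore does not show that these genes differed. A log2 ratio was taken as moved when it shifted by more than the pooled SD of probe sets of a gene, 0.21. A count was taken as moved when it changed by more than 1.5-fold, or to or from 0. Raising the floor to the 75th percentile left Tbx2 with a lower bound of 0.024, since its wild-type reading lay under that floor. Tbx3 was not measured, and no T-box probe set was 1.5-fold higher (0 against 3). Over all genes 25 were at least 1.5-fold higher and 21 lower, against 252 and 162 as reported. The counts that follow are of the same kind. With the floor lowered to the 25th percentile, 1176 genes were higher and 1084 lower, with 4 T-box probe sets higher and 2 lower. With no floor, 2364 genes were higher and 2301 lower, with 5 T-box probe sets higher and 2 lower, the latter both of Tbx3. Every T-box call beyond the 3 as reported, higher or lower, came from a probe set under the reported floor on both arrays. Such readings give no usable ratio, and the share over all probe sets at these settings is not given here. With a pseudocount, 119 genes were higher and 81 lower. Tbx3 stood at 1.06 as the mean over its measured probe sets and at 1.33 without _x_at, _s_at and _a_at types. No paired analysis was possible because each genotype has 1 array. Leaving out an array leaves no comparison.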
